A study of Mus musculus with 64 samples.

Results

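Cytosolic protein folding in these progenitors was followed through 8 genes, Tcp1, Cct2, Cct3, Cct4, Cct5, Cct6a, Cct7 and Cct8, which encode the subunits of the chaperonin TRiC (also called CCT). They are 8 of the 38924 genes listed in the series and were selected on their own values: the whole set was lower together in LSK cells of Smarcd2 knockout fetuses. The LSK knockout values of the 8 genes are therefore given as a description without a test. Tests of the 8 genes are read only for comparisons without those LSK knockout libraries.

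TRiC is a barrel of stacked rings, and each ring holds the 8 different subunits, one product of each gene. Newly made proteins enter its cavity, the barrel closes when ATP is used, and the protein folds inside. Actin and tubulin are its best known clients, and prefoldin hands many of them over, so the complex is needed by every dividing cell. Tcp1 encodes the alpha subunit, Cct2 beta, Cct3 gamma, Cct4 delta, Cct5 epsilon, Cct6a zeta, Cct7 eta and Cct8 theta.

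The study compared C57BL/6 fetal liver cells that were wild type (WT), Smarcd2 +/- (HET) or Smarcd2 -/- (KO), at 13/14 dpc, apart from 1 HET CMP library at 14.5 dpc. Smarcd2 encodes a subunit of the SWI/SNF chromatin remodelling complexes, and how its allele was disrupted is not given in the sources used here. LSK cells, the lineage-negative, Sca1-positive, cKit-positive fraction that holds the blood stem cells, gave 5 WT, 9 HET and 9 KO libraries. Of WT, HET and KO in that order, common myeloid progenitors (CMP) had 3, 7 and 4 libraries, granulocyte-monocyte progenitors (GMP) 3, 7 and 3, and megakaryocyte-erythroid progenitors (MEP) 3, 7 and 4. These last populations were sorted without Sca-1 and separated by CD34 and CD16/32. LSK fetuses were of either sex, and sex was not determined in the others. Nothing in the labels states whether libraries come from different fetuses, and the tests then weigh only library-to-library spread, which may be technical.

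Reads in genes ran from 4327582 to 24069833 in LSK and from 1006090 to 8092644 in the other populations. Smarcd2 lay between 49.4 and 132 CPM (the count of a gene scaled to a common library size, TMM-normalised) in every WT library. It was at or below 1.94 CPM in every KO library, and HET libraries ran from 8.77 to 79.4 CPM. In LSK, the HET library with 24069833 reads, in series 20, stood at 67.4 CPM. That is inside the LSK WT range of 49.4 to 70.4 CPM, while the other LSK HET libraries ran from 21.9 to 40.5 CPM. Smarcd2 thus does not separate that library from WT, and the library was kept as HET. Stem cell markers summed to 2603 to 3404 CPM in LSK and 90.2 to 393 CPM in MEP. Granulocyte-monocyte markers summed to 944 to 45447 CPM in GMP and 1892 to 5438 CPM in CMP, the lowest GMP value being that of HET 8. Megakaryocyte-erythroid markers summed to 746 to 2910 CPM in MEP, and overlapped between GMP (101 to 298 CPM) and LSK (181 to 437 CPM). In MEP, lymphocyte markers reached 1069 CPM and hepatocyte markers 4351 CPM. Libraries labelled HET 8 in the myeloid populations and KO 15 in MEP stood apart. In GMP HET 8, 85.0% of reads fell in 50 genes and the 8 subunit genes summed to 541 CPM, against 5286 to 10022 CPM in the other GMP HET libraries. In CMP HET 8 that share was 59.6%. MEP KO 15 had a scaling factor of 0.572 and a subunit sum of 16970 CPM, against 9104 to 9509 CPM in the other MEP KO libraries.

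The promoters are shown because the 8 genes moved together. RefSeq windows (GRCm38.p6) matched 7 of the 8 genes, all but Cct4, and the 250 bases before the start were searched on both strands for 7 short motifs. All 7 windows held a GC box (GGGCGG), against 32.9% of all 27025 promoters and 59% of the 9612 promoters of genes tested in LSK. An NFY box (CCAAT) stood in Tcp1, Cct3, Cct6a and Cct7, 57.1% of the windows, against 34.5% of all promoters and 36.9% of those of genes tested in LSK. The ETS core (CCGGAAG) stood in Cct2 and Cct8, 28.6% against 7.05% of all promoters and 14.6% of those tested in LSK. The heat shock element (GAANNTTC), the E-box (CACGTG), the NRF1 core (GCGCATGC) and the CRE core (TGACGTCA) were found in none of the 7 windows, in 6.78%, 6.05%, 2.32% and 1.62% of all promoters, and in 4.97%, 8.49%, 4.7% and 2.73% of those tested in LSK. Such matches are letters in a window and say nothing of a bound factor.

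Stretches clear of annotated exons are printed for 4 genes, 5′ to 3′, with motif matches on either strand in capitals: Cct8 and Cct7 had the largest and the smallest fall in LSK, Cct2 holds 4 GC boxes, and Cct3 has a pair of NFY boxes close to its start. The Cct8 stretch is chr16:87495874-87495998 on the minus strand, Cct7 is chr6:85451284-85451504 on the plus strand, Cct2 is chr10:117063853-117064102 on the minus strand and Cct3 is chr3:88297000-88297115 on the plus strand.
Cct8: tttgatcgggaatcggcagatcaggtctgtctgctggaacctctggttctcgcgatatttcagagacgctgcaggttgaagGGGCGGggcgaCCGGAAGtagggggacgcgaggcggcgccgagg
Cct7: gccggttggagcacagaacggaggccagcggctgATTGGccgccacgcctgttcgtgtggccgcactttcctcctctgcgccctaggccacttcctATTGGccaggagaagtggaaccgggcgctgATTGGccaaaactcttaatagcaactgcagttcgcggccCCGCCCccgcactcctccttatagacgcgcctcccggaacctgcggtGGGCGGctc
Cct2: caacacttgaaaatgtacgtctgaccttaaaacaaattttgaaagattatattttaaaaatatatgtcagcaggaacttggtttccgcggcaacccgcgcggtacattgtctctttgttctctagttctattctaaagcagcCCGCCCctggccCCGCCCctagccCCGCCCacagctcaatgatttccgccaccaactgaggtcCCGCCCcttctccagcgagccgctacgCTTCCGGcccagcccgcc
Cct3: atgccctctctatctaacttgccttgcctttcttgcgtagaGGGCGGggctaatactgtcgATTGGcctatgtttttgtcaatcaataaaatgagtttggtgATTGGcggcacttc
In Cct8 the GC box begins 48 bases before the start and the ETS core 37 bases before it. In Cct7 the 3 NFY boxes, each on the opposite strand, begin 187, 125 and 95 bases before the start.

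The windows also shared a position. In 6 of the 7, the annotation placed an exon of another gene, on the opposite strand, within 250 bases before the start: Mrpl18 beside Tcp1, Tsacc beside Cct3, Fam173b beside Cct5, Psph beside Cct6a, Pradc1 beside Cct7 and B130034C11Rik beside Cct8. An exon of another gene, on either strand, stood in this stretch in 18.7% of all promoters and in 23.7% of those of genes tested in LSK. None of these 6 neighbours, chosen here by position, passed the test for KO against WT in LSK (edgeR quasi-likelihood test, Benjamini-Hochberg adjusted). Of all genes, 9.28% were lower and 9.53% higher in that test, so with 6 genes nothing is read from the 0. The nearest was Psph, at -0.25 ± 0.105 on the log2 scale (SE, edgeR adjusted p = 0.0958). Mrpl18 stood at -0.19 ± 0.108, Pradc1 at -0.16 ± 0.129, B130034C11Rik at -0.16 ± 0.274 and Tsacc at -0.09 ± 0.234 (SE). Fam173b alone was above 0, at 0.11 ± 0.121 (SE, edgeR adjusted p = 0.577). Psph shares 452 exonic bases with Cct6a and Pradc1 shares 214 with Cct7. Since the preparation does not mark strand, reads in those bases cannot be assigned to one gene.

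In WT LSK cells the 8 genes together took 0.793% to 0.807% of gene reads. Per kilobase of transcript, Cct8 was the most abundant, at 659 ± 29.6 CPM per kb (SD, n = 5), followed by Cct5 at 532 ± 10.2 and Cct4 at 516 ± 25.8. Cct3 (451 ± 23.7), Tcp1 (447 ± 26.2) and Cct6a (423 ± 11.5) formed a middle group, and Cct2 (346 ± 14.2) and Cct7 (283 ± 11.5) were lowest on the same CPM per kb scale. Cct5 and Cct4 did not differ beyond their spread, nor did the genes of the middle group. The ratio of the highest to the lowest gene was 2.33, although the subunits are used in equal number. The order depends on the length used: over the union of all annotated exons, Cct3 dropped from rank 4 to rank 7, while Cct8 and Cct7 remained at the ends. Cct6a has no coding transcript in this annotation, and its longest transcript was used.

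All 8 subunit genes were lower in KO than in WT LSK cells. Cct8, the theta subunit, was measured at 1483, 1551, 1562, 1658 and 1639 normalised CPM in the 5 WT libraries and at 1015 to 1211 CPM (median 1181) in the 9 KO libraries. None of the KO values reached the WT values, and the log2 fold change was -0.47 ± 0.0564 (SE), or 0.722-fold. Tcp1, the alpha subunit, stood at 1018, 1046, 1087, 1163 and 1153 CPM in WT and at 718 to 875 CPM (median 802) in KO, a log2 fold change of -0.43 ± 0.071 (SE). Its groups did not overlap either. Cct6a, the zeta subunit, stood at 1011, 1023, 1048, 1081 and 1023 CPM in WT and at 696 to 824 CPM (median 766) in KO, a log2 fold change of -0.43 ± 0.0606 (SE).

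Cct4, the delta subunit, had WT values of 1246, 1231, 1283, 1392 and 1261 CPM and KO values of 937 to 1120 CPM (median 1004), a log2 fold change of -0.34 ± 0.0726 (SE). Cct2, the beta subunit, had 678 ± 27.8 CPM in WT (SD, n = 5) and 554 ± 37.9 in KO (SD, n = 9), with a log2 fold change of -0.29. Cct5, the epsilon subunit, had 987 ± 18.9 and 835 ± 51.0 CPM, with a log2 fold change of -0.24. Cct3, the gamma subunit, had 893 ± 46.8 and 767 ± 37.4 CPM, with a log2 fold change of -0.22. Cct7, the eta subunit, changed least. Its WT libraries were at 669, 723, 668, 673 and 719 CPM and its KO libraries at 543 to 642 CPM (median 626), a log2 fold change of -0.18 ± 0.0515 (SE). In the plot of the 23 LSK libraries, no KO point of any of the 8 genes reaches the WT points.

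**Figure D1:**
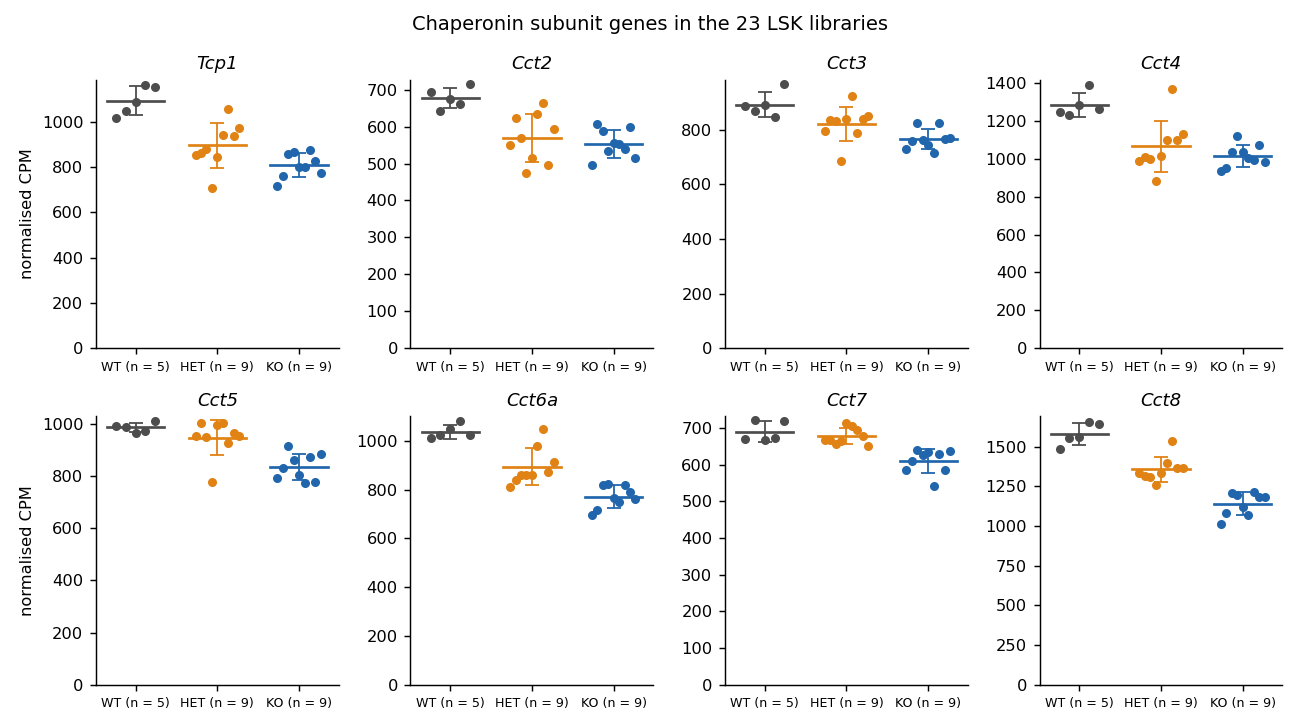
Normalised CPM (y axis, from 0) of each subunit gene in the 23 LSK libraries, 1 point per library, by genotype; lines are means and bars are 1 SD (n = 5 WT, 9 HET, 9 KO). The KO points of all 8 genes lie below the WT points. HET points overlap the WT points, and the lowest HET point lies below every KO point for Tcp1, Cct2, Cct3 and Cct4.

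The median of the 8 log2 fold changes was -0.31, beside a median of 0.01 over all 13878 genes tested. The 8 genes summed to 8240 ± 221 CPM over the WT libraries (SD, n = 5) and to 6502 ± 299.5 CPM over the KO libraries (SD, n = 9), so KO stood at 78.9% of WT. HET libraries summed to 6315 to 8085 CPM, with a mean of 7229 CPM. All 8 genes had an adjusted p under 0.05 in the lower direction, as did 9.28% of all genes. Groups that did not overlap, with KO below, were seen for 8 of 8 subunit genes and for 4.01% of all genes. The choice of the genes used this contrast, and nothing is read from these counts.

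LSK libraries share a series number, the number before the dot in their titles, whose meaning the labels do not state. WT and KO were both present in 4 of the 5 series, all but series 20. The median KO minus WT difference on the log2 CPM scale was -0.37 in series 19, -0.26 in series 21, -0.36 in series 22 and -0.39 in series 24, with all 8 genes below 0 in each. Other properties of the libraries moved with genotype. A length index was the median log2 level of transcripts over 5000 bases minus that of transcripts under 1500 bases. Each gene's mean over the libraries of its population was subtracted first, so the index compares libraries within a population. It ran from -0.25 to -0.02 in WT and from -0.15 to 0.26 in KO. With it as a covariate the subunit median was -0.24. Added spike-in RNA took 0.339% to 0.704% of reads in WT and 0.381% to 1.20% in KO. Scaled to spike-ins, the subunit median was -0.81 and that of all genes -0.48. The part of either property in the fall was not tested.

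Markers of other cells were also set beside it. Lymphocyte markers summed to 77.1 to 136 CPM in WT and 119 to 307 CPM in KO, with 1 of 6 tested markers higher and 0 lower. Macrophage markers summed to 60.1 to 541 CPM in WT and 18.4 to 762 CPM in KO, with 1 of 8 tested lower and 0 higher. Late erythroid markers summed to 107 to 1821 CPM and 113 to 483 CPM, with 0 of 7 past the threshold. Hepatocyte markers stayed at or under 53.6 CPM in WT and KO, with 0 of 3 past the threshold, and no listed marker of these groups was at 0 in all LSK libraries. Stem cell markers summed to 2603 to 3083 CPM in WT and 2821 to 3404 CPM in KO, with 3 of 9 higher and 0 lower. Granulocyte-monocyte markers summed to 878 to 1414 CPM and 1029 to 1494 CPM, with 1 of 8 lower, and megakaryocyte-erythroid markers to 203 to 330 CPM and 181 to 302 CPM, with 1 of 8 higher. Endothelial and stromal markers summed to 50.6 to 193 CPM and 60.6 to 315 CPM, with 1 of 7 higher. Their part in the subunit values was not tested. In sorted bulk samples, fewer cells of a type and less RNA per cell cannot be told apart.

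In mean summed level, HET LSK cells stood between the other genotypes. Of the 9 HET libraries, 8 lay below every WT library in summed level and 1 lay within the WT range. That count mixes series: the lowest HET library, at 6315 CPM, is in series 20, which has no WT. The median HET minus WT log2 difference was -0.20 in series 19, -0.03 in series 21, -0.29 in series 22 and -0.17 in series 24. Only series 21 had 2 WT libraries. All 8 genes had a log2 fold change below 0 against WT, with a median of -0.22 beside 0.02 over all genes, and the comparison uses the same WT libraries that helped choose the genes. None passed the edgeR quasi-likelihood test, where 0.00721% of all genes passed in this direction. At an unadjusted p under 0.05 there were 5, namely Tcp1, Cct2, Cct4, Cct6a and Cct8, and 1532 of all 13878 genes in either direction. Limma voom called 0 and DESeq2 called 4, namely Tcp1, Cct4, Cct6a and Cct8. The share of all genes that DESeq2 called is not given here, and nothing is read from the 4.

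The HET values ran from -0.29 for Tcp1 to -0.03 for Cct7, and differences between genes were not tested. Tcp1 had 896 ± 98.1 CPM in HET (SD, n = 9), which is -0.29 ± 0.0712 on the log2 scale against WT (SE, with 0.250 as the edgeR adjusted p), and 8 of 9 HET libraries lay below all WT libraries. Cct2 was at -0.25 in HET and -0.29 in KO, and Cct4 at -0.27 in HET and -0.34 in KO, on the log2 scale against WT. Cct7 and Cct5 had the smallest values, with 4 and 5 of 9 HET libraries below all WT libraries: Cct7 ran from 652 to 714 CPM (median 669), with a log2 fold change of -0.03 and a 95% interval of -0.13 to 0.08, and Cct5 had -0.06 with an interval of -0.18 to 0.06. KO against HET uses the KO libraries on which the genes were chosen, and its values are a description from which nothing is read. The median was -0.15, and 4 genes, Cct5, Cct6a, Cct7 and Cct8, were on the lower side at an adjusted p under 0.05, as were 5.17% of all genes. Every KO library lay below every HET library for 2 of the 8 genes and for 0.303% of all genes. In series 20, with 1 KO and 2 HET libraries and no WT, the median KO minus HET difference was 0.09, with 3 of 8 genes below 0. Of these 2 HET libraries, 1 had Smarcd2 at 67.4 CPM, inside the LSK WT range, so its genotype is less certain. The same library is 1 of the 9 in HET against WT.

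CMP are the nearest test outside LSK, since those libraries had no part in the choice. None of the 8 genes passed for KO against WT (edgeR quasi-likelihood test, adjusted p of 0.468 to 0.956), and 1.84% of all 11658 genes did in either direction. At an unadjusted p under 0.05 there were also 0, beside 1499 of all 11658 genes in either direction. DESeq2 and limma voom called 0. The log2 fold changes were below 0 for 7 of 8 genes, with a median of -0.18 beside -0.01 over all genes. Tcp1 was measured at 1291, 1028 and 1060 CPM in WT and at 923, 1004, 932 and 877 CPM in KO. Its log2 fold change was -0.27 ± 0.148 (SE), with a 95% interval of -0.58 to 0.04, which holds 0 and also the LSK value.

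Cct2 was at 927, 834 and 855 CPM in WT and at 818, 743, 675 and 626 CPM in KO, a log2 fold change of -0.29 ± 0.153 (SE, adjusted p = 0.468). Cct3 was at 1084, 931 and 984 CPM in WT and at 893, 905, 899 and 897 CPM in KO. In these 3 genes, Tcp1, Cct2 and Cct3, the KO values all lay under the lowest WT value, which 7.56% of all genes also showed. Cct8 overlapped, with WT at 2047, 1466 and 1732 CPM and KO at 1344, 1618, 1534 and 1528 CPM. Cct5 was the exception in sign, at 0.05 ± 0.175 (SE). WT 2 was the highest library, and without it the median was -0.09, and -0.03 for HET against WT. Series 32 and 33 gave median differences of -0.19 and -0.10, with 8 of 8 genes below 0 in each, and both of the remaining KO libraries belong to series 34, which has no WT. In CMP, spike-in RNA took 0.138% to 0.388% of reads in KO and 0.0958% to 0.230% in WT. Granulocyte-monocyte markers summed to 3278 to 4722 CPM in KO and 4076 to 5438 CPM in WT, with 3 of 10 tested lower and 0 higher, and hepatocyte markers to 36.4 to 131 CPM and 308 to 792 CPM, with 1 of 9 lower and 0 higher. Stem cell markers summed to 1415 to 1553 CPM in KO and 1111 to 1276 CPM in WT, with 2 of 6 tested higher and 0 lower. Their part in the subunit values was not tested. HET against WT gave 0 calls (0% of all genes), with a median of -0.12, and -0.05 without HET 8. Its unadjusted p was under 0.05 for 0 subunit genes and for 296 of all 11658 genes. KO against HET gave 0 calls where 2.19% of all genes passed, with a median of -0.03, and -0.12 without HET 8.

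**Figure D2:**
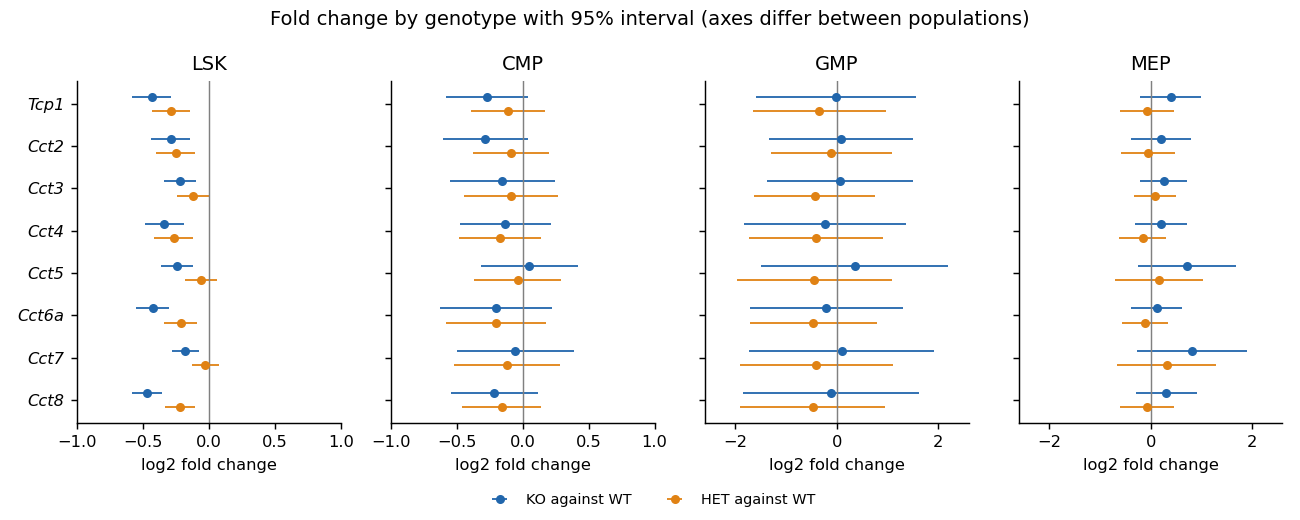
Log2 fold change (x axis; ranges differ between panels) of each subunit gene for KO against WT (blue) and HET against WT (orange) in 4 populations, with 95% intervals from the edgeR fit. In LSK the intervals of KO lie below 0 for all 8 genes, and in CMP, GMP and MEP every interval of KO crosses 0.

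GMP did not show a common direction. KO against WT gave 0 of 8 genes past the threshold, where 0.204% of all 12239 genes passed, and 0 by DESeq2 and limma voom. The unadjusted p was under 0.05 for 0 subunit genes and for 789 of all genes. Of the 8 genes, 4 were below 0, with a median of 0.02, which was -0.23 without WT 2. Precision was low: Cct8 had 1071, 1903 and 2060 CPM in WT and 1580, 1355 and 1739 CPM in KO, and its log2 fold change of -0.11 had a 95% interval of -1.84 to 1.63. A change of the size seen in LSK was thus not detectable. Cct5 spread most, from 597 to 1738 CPM in WT and 1102 to 2260 CPM in KO, while Cct2 held at 543, 555 and 549 CPM in WT and 545, 546 and 643 CPM in KO.

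Within GMP the subunit sum moved with the length index. The WT library with the index of 0.75 had a sum of 5188 CPM, and those with -0.41 and -0.26 had 9191 and 10006 CPM. GMP HET 8 lay at the end of this relation, with an index of 3.24 and the lowest sum. With the index as a covariate, the KO against WT median was -0.60 with 8 of 8 genes below 0 and 0 called. That fit included HET 8. The KO libraries had an index of -1.50, -1.60 and 0.17, so index and genotype were only partly separate, and no fall is read from the -0.60. In GMP KO and WT, late erythroid markers summed to 103 to 3184 CPM and 1078 to 3209 CPM, with 0 of 7 past the threshold, and hepatocyte markers to 25.1 to 86.8 CPM and 41.2 to 1383 CPM, with 0 of 9. Endothelial and stromal markers summed to 26.5 to 154 CPM in KO and 9.08 to 16.4 CPM in WT, with 0 of 2 tested past the threshold, and granulocyte-monocyte markers to 12802 to 22870 CPM and 12025 to 33774 CPM, with 1 of 11 lower. Their part in the subunit values was not tested. HET against WT gave 0 calls (0% of all genes) with a median of -0.42, and -0.22 without HET 8. Its unadjusted p was under 0.05 for 0 subunit genes and for 61 of all 12239 genes. Limma voom with quality weights called 3 genes, Cct5, Cct7 and Cct8, lower. The share of all genes that limma voom called there is not given, and nothing is read from the 3. KO against HET gave 0 calls where 0.261% of all genes passed, with a median of 0.35, and 0.16 without HET 8.

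**Figure D3:**
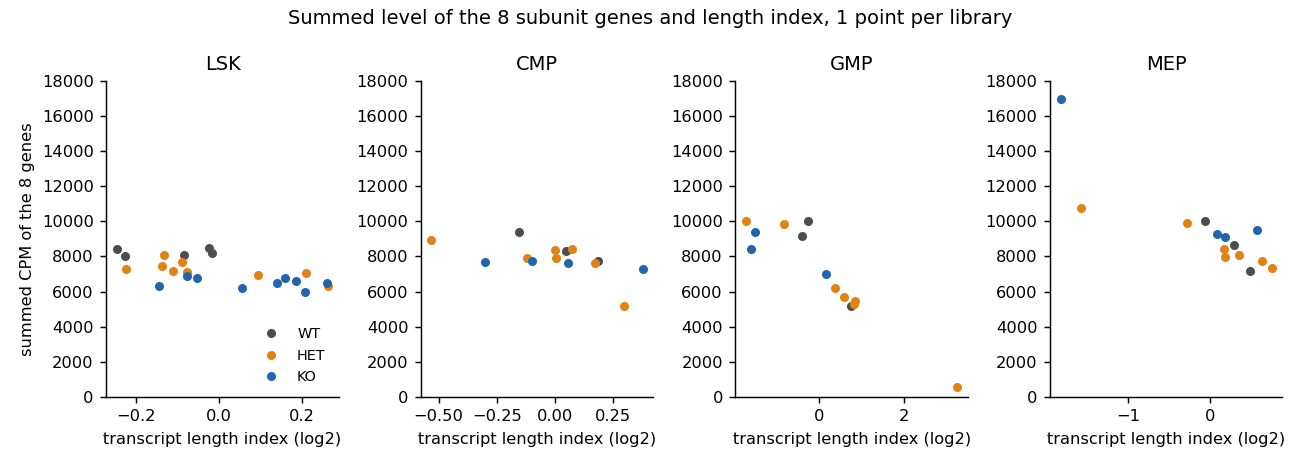
Summed normalised CPM of the 8 subunit genes (y axis) against the transcript length index of the library (x axis, log2; ranges differ between panels), 1 point per library, coloured by genotype. In GMP the sum falls from about the level of 10022 CPM at negative index to 541 CPM in HET 8, and MEP KO 15 is the highest point at 16970 CPM.

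Spike-in RNA took 2.52% to 3.06% of reads in the 3 GMP KO libraries and at most 0.394% in the other GMP libraries. Scaled to spike-ins, all 8 genes were lower in GMP KO than in WT, with a median of -4.12, and so were 10435 of the 12239 genes, whose median was -4.10. The 8 genes thus moved as all genes did under that scaling. The source of that spike-in share was not tested.

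MEP went the other way in sign but not past the threshold. All 8 genes had a log2 fold change above 0 for KO against WT, with a median of 0.28 beside 0.06 over all genes. None passed (edgeR adjusted p of 0.685 to 0.909, and 0 by DESeq2 and limma voom), and 0.00856% of all 11686 genes did. The unadjusted p was under 0.05 for 0 subunit genes and for 809 of all genes. In counts simulated with the spread of the MEP libraries, edgeR called 0 of 50 genes changed 2-fold. Cct3 was at 1067, 868 and 1041 CPM in WT and at 1218, 1087, 1087 and 1353 CPM in KO, all above WT, which 4.07% of all genes also showed. Its log2 fold change was 0.26 ± 0.217 (SE). Cct7 and Cct5 had the largest values, 0.81 and 0.71, and 1 library set them. Cct7 was at 908, 823, 878 and 2825 CPM in KO, and Cct5 at 1107, 1068, 1134 and 3591 CPM, the last of each being KO 15. Without KO 15 they stood at 0.19 and 0.09, and the median of the 8 genes was 0.15. In MEP, late erythroid markers summed to 665 to 3163 CPM in KO and 2249 to 18039 CPM in WT, and lymphocyte markers to 57.1 to 111 CPM and 187 to 1069 CPM, with none of the 7 and 6 tested past the threshold. Their part in the subunit values was not tested. HET against WT gave 0 calls (0% of all genes) with a median of -0.07, and -0.05 without HET 8, and KO against HET 0 calls (0.0171% of all genes) with a median of 0.38, which was 0.13 without KO 15.

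Across populations, no subunit gene passed the edgeR test in a fit of the 41 CMP, GMP and MEP libraries over 11829 genes. That fit did not pair libraries with the same title number. WT GMP against WT CMP gave 0 calls where 1.03% of genes passed, WT MEP against WT CMP 0 where 3.1% passed, and WT GMP against WT MEP 0 where 6.95% passed. The HET comparisons also gave 0 calls, with 5.6% of genes passing for GMP against CMP, 10.2% for MEP against CMP and 17.7% for GMP against MEP. Cct3 alone had an unadjusted p under 0.05, in HET GMP against HET MEP, as 3512 of the 11829 genes did. DESeq2 called Cct3 lower there. Without the HET 8 libraries and MEP KO 15, edgeR called Cct2 lower in that comparison (-0.27 on the log2 scale, adjusted p = 0.0415, against -0.33 and 0.423 with them). The shares of all genes called in these alternatives are not given here, and nothing is read from either call. The medians of the WT differences lay between -0.01 and 0.13 on the log2 scale. Those of HET were -0.06 for GMP against CMP, 0.19 for MEP against CMP and -0.25 for GMP against MEP, and without the libraries that stood apart they were 0.06, 0.06 and -0.09. Single genes were less certain: Cct7 in GMP against CMP was 0.79 ± 0.594 (SE), with a 95% interval of -0.41 to 1.99.

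The KO effects were compared between these populations directly. The difference between the GMP and CMP effects had a median of 0.22, that between MEP and CMP 0.47 and that between GMP and MEP -0.31. Without number 2 of WT the first was -0.0627 and the last -0.69, and without KO 15 the middle one was 0.30. None of the 8 genes passed in any of the 3 comparisons, where 0.0169%, 0% and 0.414% of all genes passed. The unadjusted p was under 0.05 for 0 subunit genes, and for 714, 278 and 926 of all 11829 genes. For Tcp1 the MEP minus CMP difference was 0.62 ± 0.563 (SE), with a 95% interval of -0.51 to 1.76. LSK was processed apart, and its KO effect was not compared with the others by a test.

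Variation within genotype was described next. Over the 23 LSK libraries, with each genotype mean subtracted, pairs of subunit genes had a median Pearson r of 0.46 (lowest 0.03, highest 0.88). Tcp1 followed the other 7 most closely (r = 0.89), then Cct8 (0.84), and Cct7 least (0.36). The median r of 9229 other genes with the subunit mean was -0.01, and 5% of them lay above 0.58, so Cct2 (0.55), Cct5 (0.56) and Cct7 were under that level with the mean of the other 7. Over the 41 libraries of the other populations the median pair r was 0.90, but the median of 8189 other genes was also higher there, at 0.17, with 5% of them above 0.89. Without the 3 HET 8 libraries and MEP KO 15, the median pair r over 37 libraries was 0.77 (lowest 0.11), Cct2 followed the other 7 at 0.31, and 5% of 8137 other genes lay above 0.90. The libraries differ in depth and in the length index, which was not removed from these values.

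The genes most like the subunit mean in LSK were Hspd1-ps3 (r = 0.93), a pseudogene of Hspd1 whose reads may belong in part to that gene, Rbbp7 (0.87), which encodes a histone-binding protein, Rsl24d1 (0.86), a ribosome biogenesis factor, Ran (0.86), the nuclear transport GTPase, and Ywhaq (0.85), a 14-3-3 protein, over 23 libraries. In the other populations they were Ltv1, Ifngr1, Vrk1, Hnrnpc and Rpn2, each at r = 0.98 (41 libraries). That set rests on the libraries that stood apart: without them the leading genes were Pdhb, Ddx39, Fam136a, Nif3l1 and Wdr12, each at r = 0.97 (37 libraries). Of the lists, proteasome genes had a median r with the subunit mean of 0.47 in LSK, genes of the HSP70 and HSP90 system 0.34, proliferation genes 0.32, and growth and ribosome biogenesis genes -0.01.

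For the partners and clients of the chaperonin in KO LSK cells, the counts are set against the 9.28% of all genes that were lower. Of 9 tested partners, which are prefoldin subunits and phosducin-like cofactors that bring or regulate clients, 1 was lower and 0 higher, with a median of -0.09. The lower one was Pfdn4, at -0.46 ± 0.122 (SE, edgeR adjusted p = 0.00911), while Pdcl was at 0.21, Pfdn5 at 0.19 and Pfdn2 at -0.20. Of 27 substrates, 2 were lower and 1 higher, with a median of -0.05. Ccne1, which encodes cyclin E1, fell by 0.62 on the log2 scale (adjusted p = 0.00102) and Tubb4b, a beta-tubulin, by 0.40 (adjusted p = 0.00336), while Rptor, a subunit of mTORC1, rose by 0.48 (adjusted p = 0.0258). Tubb6 was at -0.41 (adjusted p = 0.0568). None of 6 tubulin folding cofactors passed in edgeR; Tbcb was at -0.26, Tbca at -0.29, Tbce at 0.12 and Arl2 at 0.07.

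Some genes of other chaperones were lower in KO LSK cells. The mitochondrial chaperonin pair fell: Hspd1, which encodes HSP60, by 0.55 (adjusted p = 1.87e-05) and its lid Hspe1, which encodes HSP10, by 0.72 (adjusted p = 0.000121). They were 2 of 5 tested other chaperonin genes, and Mkks was at -0.18 and Bbs10 at 0.26. Of 27 tested genes of the cytosolic HSP70 and HSP90 system, 12 were lower and 0 higher, with a median of -0.18. Dnaja2, an HSP40 cochaperone, fell by 0.54 (adjusted p = 1.26e-05), Hspa4, a nucleotide exchange factor, by 0.59, Ptges3, the HSP90 cochaperone p23, by 0.54, and Fkbp4, an HSP90-binding immunophilin, by 0.42. All of these lists were drawn up with earlier results of these data known, and 9.28% of all genes were lower in this comparison.

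Of 31 proteasome genes, 13 were lower and 0 higher, with a median of -0.20. Psmc5, an ATPase of the regulatory particle, fell by 1.53 in LSK (adjusted p = 2.06e-15) and by 0.94 in CMP (adjusted p = 0.00425). Psmc5 lies on chromosome 11 at 106256185 to 106263112 and ends 58 bases before Smarcd2, which lies at 106263171 to 106272998 (RefSeq, GRCm38.p6). Without Psmc5, 12 of 30 proteasome genes were lower in LSK and 0 of 30 in CMP. Psmd8 (-0.29), Psmd6 (-0.36) and Psmd13 (-0.23), subunits of the regulatory particle, were among those lower in LSK. Of 28 growth and ribosome biogenesis genes, 14 were lower and 0 higher, with a median of -0.30, close to that of the subunit genes; Ncl, which encodes nucleolin, fell by 0.57, Nhp2 by 0.47, Srm by 0.46 and Nop58 by 0.35. Of 16 proliferation genes 4 were lower, Rrm2 by 0.55, Pcna by 0.38, Tyms by 0.39 and Ccna2 by 0.64, and 0 were higher, with a median of -0.23.

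**Figure D4:**
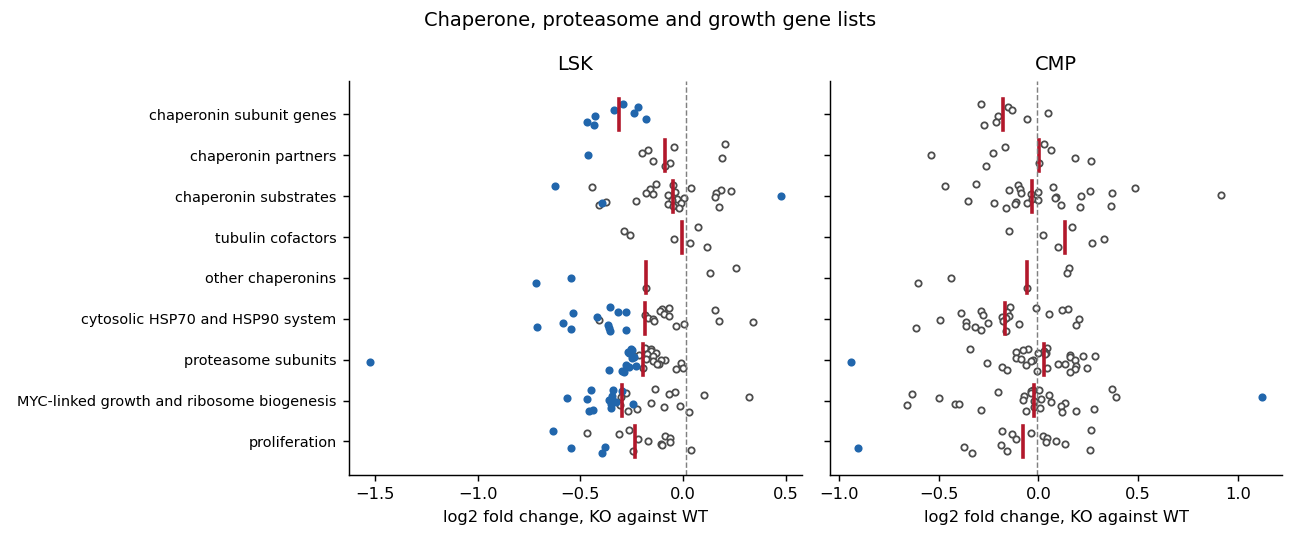
Log2 fold change of KO against WT (x axis) for each gene of the chaperonin set and 8 related lists in LSK and CMP; filled points have an edgeR adjusted p under 0.05, red bars are list medians and the dashed line is the median of all genes. In LSK 8 subunit genes, 12 HSP70 and HSP90 genes, 13 proteasome genes and 14 growth genes are filled on the lower side, and in CMP none of the 8 subunit genes is.

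In CMP, where 1.84% of all genes passed, 3 genes of these lists did. The HSP70 and HSP90 genes had 0 of 24 past the threshold and a median of -0.17, with Ptges3 at -0.62 (edgeR adjusted p = 0.166), Hsp90aa1 at -0.49, Dnaja2 at -0.39 and Ppid at -0.32. Hspe1 was at -0.61 (adjusted p = 0.139), Hspd1 at -0.44, Bbs12 at 0.14 and Bbs10 at 0.15, with 0 of 5 called. Among partners 0 of 9 passed, with Pfdn4 at -0.54, Vbp1 at -0.26, Pfdn2 at -0.23 and Pdcl3 at -0.17. Substrates had 0 of 27, with Ccne1 at -0.47, Ppp2r2d at 0.92, Tubg1 at 0.36 and Tuba4a at -0.35. The tubulin cofactors Tbcc (0.33), Tbcd (0.27), Tbca (-0.15) and Arl2 (0.17) did not pass. Of the proteasome genes Psmc5 alone passed, and Psma3 was at -0.34, Psmc6 at -0.26 and Psmb4 at 0.28. Mycn rose by 1.12 (adjusted p = 0.0207), while Npm1 was at -0.40, Apex1 at 0.37 and Ncl at -0.50. Rrm2 fell by 0.90 (adjusted p = 0.0229), and Pcna (-0.38), Tyms (-0.33) and Tk1 (0.26) did not pass.

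In GMP and MEP no gene of these lists passed for KO against WT. The proteasome genes had a median of 0.51 in GMP and 0.66 in MEP, and the growth genes 0.11 and 0.33. The 8 subunit genes stood at 0.02 and 0.28, and all genes at 0.004 and 0.06. The MEP medians include the KO library that stood apart. In GMP the length index ran from -1.60 to 0.17 in KO and from -0.41 to 0.75 in WT. List medians without that library or with the index as a covariate are not given, and no rise in KO is read from these values.

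Near copies of some subunit genes held reads in LSK, and whether reads were assigned to the wrong copy was not tested. Processed pseudogenes of Cct3, Cct4, Cct7 and Tcp1 held reads there: Cct3-ps1 6.14% and Gm11516 6.87% of the reads of Cct3, Gm15495 5.64% of those of Cct4 and Gm5380 6.32% of those of Cct7. Summed over the copies, the share of subunit reads was 3.28% ± 0.104 for WT (SD, n = 5), 3.28% ± 0.115 for HET (SD, n = 9) and 3.26% ± 0.0981 for KO (SD, n = 9), so it did not differ with genotype beyond its spread. In CMP and MEP it was at most 0.307% in any library, and fewer of the copies were listed. In GMP it was at most 0.195% in WT and KO libraries, and in HET it averaged 1.32%, with a highest library of 8.11%. Tcp1 also aligns to Acat2 over 445 bases at 98.7% identity and shares 571 exonic bases with Acat3. The levels of these 4 genes are to that extent uncertain.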

How the data were processed

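RNA of sorted cells was amplified by Smart-seq2 and made into Nextera XT libraries, which do not mark strand, per the labels' protocols. The authors deposited raw read counts per gene, made with featureCounts on GRCm38 (mm10), as recorded in the submitters' processing notes. For the aligner, the gene annotation and the version of featureCounts the entry is: not given in the sources used here. No value column was left unmapped.

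Counts were analysed in R 4.3.3 with edgeR 4.0.16 (TMM scaling, filterByExpr at a minimum count of 10, robust quasi-likelihood fit, Benjamini-Hochberg threshold 0.05). Spike-in rows stayed out of library sizes. Each population was fitted with its 3 genotypes, and CMP, GMP and MEP were also fitted jointly on 11829 of the 11902 genes listed in all of them. LSK was not joined to them. DESeq2 1.42.0, limma 3.58.1 (voom with quality weights) and other scalings, filters and covariates were alternatives, and scripts were tested on simulated data. CPM are TMM-normalised. Intervals are 95% and rest on the fit's total degrees of freedom, the residual ones plus those gained from the spread of all genes.

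The named genes are the 8 subunits, up to 4 genes of each list with the smallest p for KO against WT in LSK and in CMP, Smarcd2, and the 5 genes most like the subunit mean. The subunit genes, the lists and the rule were chosen with earlier results of these data known. Transcript lengths are those of GENCODE M21, and promoters are RefSeq windows. Near copies are genes aligned over at least 200 bases at 80% identity or more.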

Additional observations from a re-analysis of the deposited data

Results flagged for a closer look

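In 22 of the 64 subunit gene groups of 4 to 10 libraries, 1 library lay far from the others, while chance alone gives this in about 1 in 20 groups. The genes share libraries, so the groups are not independent, and the libraries numbered 8 and 15 account for all but 2 of them. Values are normalised CPM.

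CMP HET 8 was the lowest of 7 libraries for 7 genes: Tcp1 at 797, Cct3 at 541, Cct4 at 741, Cct5 at 624, Cct6a at 373, Cct7 at 322 and Cct8 at 1153. GMP HET 8 was the lowest for Cct2 at 64.3, Cct3 at 87.7 and Cct6a at 43.9. MEP HET 8 was the lowest for Cct2 at 366 and the highest for Cct3 at 1386, Cct5 at 2216 and Cct7 at 2219.6.

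MEP KO 15 was the highest of 4 libraries for 5 genes, with Tcp1 at 2499, Cct4 at 1791, Cct5 at 3591, Cct7 at 2825 and Cct8 at 3213. CMP KO 15 was the highest for Cct7, at 787. In LSK, HET library 4 of series 20 was the lowest of 9 for Cct5, at 779, and HET library 6 of series 21 the highest for Cct8, at 1535.

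For Cct3, each KO library was below all WT libraries in LSK and in CMP, as for 4.01% and 7.56% of all genes, and above all of them in MEP, as for 4.07%. The MEP log2 fold change was 0.26, and Cct3 passed the edgeR test in neither CMP (adjusted p = 0.798) nor MEP (adjusted p = 0.745). The difference between LSK and MEP was not tested, and that between the MEP and CMP effects was 0.39 on the log2 scale (edgeR quasi-likelihood test, adjusted p = 1.00).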

How the results depend on the processing

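Values are medians of the 8 log2 fold changes. The LSK KO libraries helped choose the genes, so counts called in LSK KO comparisons, here and below, are a description only. Counts called stand without the share of all genes under the same setting, and nothing is read from them about the subunit genes. Scaling to spike-ins moved LSK KO against WT to -0.81 with 5 genes called (all genes -0.48), LSK HET against WT to -0.44 (all genes -0.21), LSK KO against HET to -0.41 with 0 called, CMP KO against WT to -0.73 (all genes -0.59), CMP KO against HET to -0.52 and MEP KO against HET to 0.63. It moved GMP KO against WT to -4.12 with 8 called, where Cct2 (-4.09), Cct3 (-4.08), Cct5 (-3.78) and Cct7 (-4.02) changed sign. GMP KO against HET went to -3.82 with 8 called and all 8 changed sign, with Tcp1 at -3.85, Cct2 at -4.09, Cct3 at -3.80, Cct4 at -3.93, Cct5 at -3.26, Cct6a at -3.98, Cct7 at -3.51 and Cct8 at -3.74. A covariate of log2 spike-in share gave -0.29 for CMP KO against WT and -3.17 with 8 called for GMP KO against WT, with Cct2 at -2.54, Cct3 at -2.44, Cct5 at -3.18 and Cct7 at -3.58. For GMP KO against HET it gave -2.81 with 8 called, with Tcp1 at -2.81, Cct2 at -2.54, Cct3 at -2.11, Cct4 at -3.06, Cct5 at -2.78, Cct6a at -2.81, Cct7 at -3.19 and Cct8 at -3.30. In GMP the spike-in share separates KO from the other genotypes, so the covariate and genotype cannot be told apart. The length index as a covariate gave -0.24 with 5 called for LSK KO against WT and -0.60 for GMP KO against WT. In GMP the index and genotype were only partly separate. DESeq2 called 4 genes for LSK HET against WT and 1, Cct3, for HET GMP against HET MEP, and limma voom called 3 for GMP HET against WT. The title series as a block gave 0.13 for MEP KO against HET. Without HET number 8 and MEP KO 15, a choice made after seeing the data, 1 gene, Cct2, was called for HET GMP against HET MEP. The cause of these changes was not tested.

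Leaving out 1 library at a time gave -0.32 to -0.30 for LSK KO against WT with 7 to 8 genes called (Cct7 was lost without WT library 1 of series 21, and also with no count filter), -0.245 to -0.0865 for CMP KO against WT, and 0.13 to 0.42 for MEP KO against HET. It gave -0.0627 to 0.380 for the GMP against CMP difference in KO effect and -0.69 to -0.11 for GMP against MEP, the ends at -0.0627 and -0.69 being without WT number 2. Of 2056 alternative values, 120 differed in sign from the main value with neither called.

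A number in CMP, GMP and MEP titles has the same genotype and series in each population. The labels do not state whether 1 number is 1 fetus. Not every pair of the same number correlated above 0.1, and the main fits did not pair libraries by number. Above 0.1 were 9 of 13 pairs for GMP and CMP, 5 of 13 for GMP and MEP, and 12 of 14 for MEP and CMP. In the same order, 6, 3 and 10 libraries correlated best with their own number. Whether the libraries are paired by fetus cannot be decided from these counts. With the replicate block, 0 genes were called in each of the 9 joint comparisons. The block gave 0.13, 0.09 and -0.01 for WT GMP against CMP, MEP against CMP and GMP against MEP, -0.20, 0.23 and -0.37 for HET (-0.06, 0.19 and -0.25 without the block), and 0.19, 0.44 and -0.28 for the KO effects.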
